A study of Mus musculus with 16 samples.

Results

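Granulosa cells (mGCs) of the mouse endometriosis (EM) model were compared after culture and directly after isolation, with 3 cultured and 5 fresh libraries out of 16 in the series. All cells came from female ICR mice in which endometrium of an estradiol-primed donor had been sutured onto the serosa of the intestinal mesentery. The recipients kept their ovaries, were given 17β-estradiol during graft growth, and had ovulation induced with PMSG or HCG before the follicles were punctured to release the mGCs. The mice were 6 weeks old at purchase. The fresh libraries, EM-mGC-1 to EM-mGC-5, came from 5 EM mice and were not cultured. The cultured libraries, PBS-1 to PBS-3, came from the mGCs of 6 other EM mice, kept for 24 h per the labels with the vehicle PBS in DMEM/F12 medium and 5% serum of fetal calves. Whether these hours include the time before the vehicle was added was not clear from the sources. How the mice were divided over the 3 cultured replicates was not given in the sources used here. All 8 libraries were made from poly(A) RNA of the whole isolate, so that any other cell released by the puncture was sequenced too. The cultured and fresh cells were sequenced in different experiments and came from different mice, so that culture, mouse cohort and sequencing experiment cannot be told apart in any value given here. For this reason a gene was called only where edgeR gave an adjusted p under 0.05 and at least a 4-fold difference (a log2 fold change of 2 or more in size). Positive log2 fold changes mean higher in culture throughout, and errors are SE.

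Granulosa cells are the somatic cells that line the follicle and surround the oocyte. Follicle-stimulating hormone (FSH) acts on them through its receptor to drive proliferation and aromatase, which turns androgens made by theca cells into estrogen. After the surge of luteinizing hormone (LH) they lose the estrogen programme, make progesterone and become the luteal cells of the corpus luteum. On plastic and in serum, epithelial cells in general spread, form actin stress fibres and activate the co-activator YAP with its DNA-binding partners of the TEAD family, and MRTF with the serum response factor SRF.

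Of 57010 genes in the joined tables, 33669 had at least 1 read in these 8 libraries and 17301 passed the filter on low counts. Cultured libraries held 21384686 to 27728777 counts and fresh ones 14229123 to 15072324, yet the cultured libraries had reads on fewer genes (21101 to 21827) than the fresh (25080 to 26869). In all, 3939 genes were called (22.8% of those tested), of which 700 were higher (4.05%) and 3239 lower (18.7%) in culture. At least 16-fold differences were found for 131 of the called genes in the higher and 1701 in the lower direction. With no fold limit 11932 genes (69% of those tested) had an adjusted p under 0.05, and the groups did not overlap for 66.3%, so that a call by p alone, or a gap between the groups, is common here. The log2 levels of libraries correlated at 0.946 to 0.978 within the fresh group, 0.993 to 0.994 within the cultured group and 0.809 to 0.852 between them, and the biological coefficient of variation was 0.273 in fresh and 0.0770 in cultured libraries. Calls lower in culture took 16.6% of 14478 tested protein-coding genes, 33.4% of 1537 lncRNA genes and 44.9% of 296 genes that the annotation marks as to be experimentally checked. Library EM-mGC-3 stood apart by its mitochondrial share, and without it 3813 genes were called. The counting rule for overlapping genes was not given in the sources used here, so that levels of genes that share ground with another gene are uncertain. Among genes named below this holds on the same strand for Insl3 (with Jak3), Trim61 (Trim60), Cyp11a1, Esr2, Ezhip, Ptprc, Pdgfra and Actn1, and on the opposite strand for Foxl2 (Foxl2os), Vcl (Ap3m1), Timp3 (Syn3), Ankrd1, Tbx18, Cald1, Lox and Cdkn1a, among others.

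Of the genes that define granulosa cells, 14 fell, with the largest fitted change in the aromatase gene, and 19 were not called. Of 34 tested granulosa identity genes 14 were lower (41.2% against 18.7% of all tested genes) and 1 was higher (2.94% against 4.05%). The median log2 fold change was -1.36 against -0.11 over all tested genes. Aromatase, encoded by Cyp19a1 (chr9:54073221-54175394, build GRCm39 by the processing notes), was at 191, 601, 266, 138 and 217 CPM (counts relative to the scaled library size) in EM-mGC-1 to EM-mGC-5 and at 0, 0.129 and 0.360 CPM in PBS-1 to PBS-3. Every fresh library was far above every cultured one, with EM-mGC-2 the highest, and the log2 fold change was -10.59 ± 0.83, adjusted p = 4.24e-06. Fshr (chr17:89292380-89508103), the FSH receptor, was at 96.3, 172, 112, 42.0 and 83.4 CPM in the same order of fresh libraries and at 4.6, 5.46 and 4.96 CPM in culture. It was detected in all cultured libraries, below the lowest fresh one, EM-mGC-4, and differed by -4.33 ± 0.43, adjusted p = 1.77e-05 on the log2 scale. Amh, the hormone of small growing follicles, was at 62.9, 30.0, 80.9, 39.4 and 44.4 CPM in fresh and 0.423, 0.258 and 0.20 CPM in cultured libraries (-7.46 ± 0.48, adjusted p = 1.34e-06). Nr5a2, a nuclear receptor needed for ovulation and luteal function, was at 705, 1175, 847, 480 and 673 CPM in fresh and 102, 106 and 101 CPM in cultured libraries, again without overlap (-2.92 ± 0.28, adjusted p = 1.33e-05). Nr0b1, the nuclear receptor DAX1, had no cultured read and was at least 80.6-fold lower. The other members that fell were Nap1l5 (-7.28), Kctd14 (-6.66), Mro (-6.22), Ihh (-5.76), Slc18a2 (-5.05), Bmpr1b (-3.45), Igfbp5 (-3.07), Socs2 (-2.94) and Gatm (-2.04), here with their log2 fold changes. Ihh is the ligand by which granulosa cells signal to theca cells, and Bmpr1b a receptor for oocyte and follicular BMPs.

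Lineage and inhibin genes did not reach the 4-fold limit. Foxl2, the transcription factor that keeps ovarian somatic cells female, was at 171, 259, 277, 161 and 209 CPM in fresh and 139, 135 and 151 CPM in cultured libraries. All cultured values lay under all fresh ones, but by a log2 fold change of only -0.60 ± 0.19, adjusted p = 0.0161. Inha, the inhibin alpha subunit, was at 4308, 7297, 4675, 2565 and 4463 CPM in fresh libraries and 2955, 2477 and 2824 CPM in culture, with overlapping groups (-0.76 ± 0.30, adjusted p = 0.0415). Inhba, the activin A subunit, spanned 770.3 CPM in EM-mGC-4 to 4615 CPM in EM-mGC-2 and was at 2231, 2146 and 2086 CPM in culture (-0.01 ± 0.45, adjusted p = 0.979), so that the cultured libraries sat inside the fresh range. The receptors Amhr2 (-0.84) and Esr2 (-0.91) and the transcription factors Gata4 (1.49), Gata6 (-1.60) and Nr5a1 (-0.32) were not called. Summed over all 34 markers, the granulosa level was 9270.3 to 25289 CPM in fresh and 9099.6 to 9604 CPM in cultured libraries, which overlap. The only member called higher was Cdh2, N-cadherin, the adhesion molecule between granulosa cells, at 64.5, 89.1, 55.2, 59.4 and 70.3 CPM in fresh and 674, 667 and 601 CPM in cultured libraries (3.26 ± 0.16, adjusted p = 3.01e-07).

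In the luteal and steroidogenic list 6 of 25 tested genes were lower (24% against 18.7% of all tested genes) and 2 higher (8% against 4.05%), with a median of -0.21, shares near those of all genes. Among the 6 were 3 receptors. Lhcgr (chr17:89023909-89099418), the LH receptor that luteinizing granulosa cells carry, was at 969, 998, 717, 593 and 775 CPM in the fresh and 0.264, 0.258 and 0.440 CPM in the cultured libraries. It was abundant in every fresh library and close to the detection limit in every cultured one, a log2 difference of -11.25 ± 0.35, adjusted p = 3.7e-08. Ptgfr, the receptor through which prostaglandin F2α ends luteal function, was at 277, 115, 139, 167 and 295 CPM in fresh and 4.54, 7.30 and 8.39 CPM in cultured libraries (-4.87 ± 0.42, adjusted p = 6.54e-06), and Prlr, the prolactin receptor that maintains the rodent corpus luteum, had a log2 difference of -3.73 ± 0.21, adjusted p = 6.75e-07. Akr1c18, which inactivates progesterone at the end of luteal life, was at 343, 30.9, 122, 245 and 563 CPM in fresh libraries, with EM-mGC-2 lowest, and at 2.22, 1.25 and 1.60 CPM in culture (-7.28 ± 1.01, adjusted p = 0.000138).

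The enzymes that make progesterone, in contrast, were not called. Star, which carries cholesterol into mitochondria, was at 640.5, 242, 927, 431 and 369 CPM in fresh and 469.8, 457 and 429 CPM in cultured libraries (-0.21 ± 0.36, adjusted p = 0.625). Cyp11a1, the side-chain cleavage enzyme, was at 8526, 3810.1, 6639.8, 8027 and 6801 CPM and 5433, 4983 and 4831 CPM (-0.41 ± 0.26, adjusted p = 0.180). For both genes the cultured libraries lay within the fresh range. Hsd3b1, which completes progesterone, was at 5408, 5686, 4979, 5303 and 4248 CPM in fresh libraries and 2152, 2568 and 2776 CPM in culture, separate but under the 4-fold limit (-1.04 ± 0.18, adjusted p = 0.000611). The members called higher were Parm1, a mucin-like membrane protein, at 56.7, 48.0, 65.1, 155 and 53.6 CPM in fresh and 1871, 1707 and 1550.5 CPM in cultured libraries (4.5 ± 0.38, adjusted p = 5.96e-06), and the LH-induced transcription factor Cebpb (3.07). The plot of granulosa, steroidogenic and theca genes by library shows both patterns side by side.

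**Figure D1:**
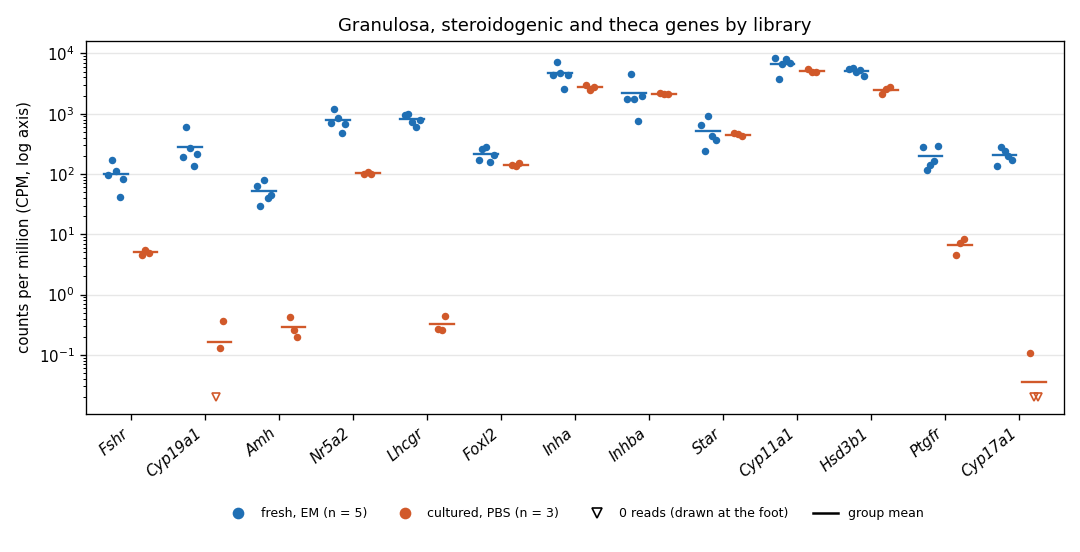
CPM (log axis) of 13 granulosa, steroidogenic and theca genes in each of 5 fresh EM libraries (blue) and 3 cultured PBS libraries (orange), with group means as bars and libraries without reads as open triangles at the foot. Cyp19a1, Lhcgr and Cyp17a1 fall from over 100 CPM in every fresh library to under 1 CPM in every cultured one, while Inhba, Star and Cyp11a1 stay within the fresh range.

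Genes of the ovulatory response were mixed, with 2 of 22 tested members higher and 7 lower (median -0.48). The shares were 9.09% higher and 31.8% lower, against 4.05% and 18.7% of all tested genes. Ptgs2, the cyclooxygenase that the LH surge induces, was at 5.76, 3.57, 11.5, 31.5 and 6.29 CPM in fresh and 136, 104 and 90.7 CPM in cultured libraries, and rose (3.23 ± 0.57, adjusted p = 0.00067). The prostaglandin E2 receptor Ptger2 rose as well (2.47, 3.16, 2.69, 5.45 and 2.80 CPM in fresh, 36.0, 45.5 and 48.2 CPM in culture, 3.70 ± 0.24, adjusted p = 1.51e-06). The progesterone receptor gene Pgr, which the LH surge induces and follicle rupture needs, was at 0.632, 1.99, 1.77, 1.61 and 1.12 CPM in fresh libraries and had 3 reads in culture, a ratio of 31.8 (95% counting interval 10.6 to 157). Zbtb16, a progesterone-responsive transcription factor, had 1 cultured read, a ratio of 238 (95% counting interval 42.3 to 9414), and Rgs2 (-5.08), Edn2 (-4.97) and Vcan (-4.58) fell as well. The cumulus matrix genes Has2 (-0.41), Tnfaip6 (0.48) and Ptx3 (1.58) and the EGF-like ligands Areg (-1.43), Ereg (-0.56) and Btc (-0.82) were not called. Sertoli cells are the testicular counterpart of granulosa cells. Of their 18 tested genes 3 were higher (16.7% against 4.05% of all tested genes) and 8 lower (44.4% against 18.7%, median -1.94). Sox9, the testis-determining transcription factor, was at 2.15, 2.46, 0.847, 1.67 and 0.996 CPM in fresh and 19.7, 16.2 and 16 CPM in cultured libraries, every cultured library above every fresh one (3.39 ± 0.31, adjusted p = 9.17e-06), and Sox8 (2.66) and Clu (2.12) were called higher too. Lower were Cldn11 (-5.86), Defb19 (-4.51), Gata1 (-3.41), Trf (-3.03), Rhox5 (-2.14) and Wt1 (-2.13) and Mro, which is on the granulosa list as well. The summed level of the Sertoli list was higher in every cultured library, at 4596 to 5294 CPM against 1342 to 2117 CPM in fresh ones, and Clu made up most of it. Dmrt1, which maintains male fate in the testis, had 0 reads in all 8 libraries. Rhox8 had 0 reads in the 3 cultured libraries and 6.32, 19.2, 6.70, 8.11 and 7.78 CPM in the fresh, which puts it at least 221-fold lower in culture, counted against 3 reads over the cultured group.

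Markers of leukocytes, endothelium, red blood cells and oocytes fell together, several to no reads at all. In bulk RNA, fewer cells of a type and less RNA per cell cannot be told apart. Of 24 tested macrophage and monocyte genes 24 were lower, of 21 endothelial genes 19, of 15 neutrophil genes 14, of 15 lymphocyte genes 14, of 7 red blood cell genes 6 and of 19 oocyte genes 19. None of these lists had a member called higher (0 in each). Over all tested genes 18.7% were called lower. Members with no cultured read, 9 on the lymphocyte, 8 on the oocyte, 5 on the neutrophil and 4 on the red blood cell list, passed the filter through the fresh group alone and could only be called lower, so that these counts describe the lists and do not test them. Among members with at least 10 counts in every library, the median log2 fold change was -3.01 for the macrophage and -1.73 for the lymphocyte list, against -7.02 and -6.78 over all their tested members. That filter keeps only members still read in every cultured library, so that a smaller fall is built in. The summed lymphocyte level was 2.85 to 3.14 CPM in culture, so that few of its members can pass. Ptprc, the CD45 antigen of all leukocytes, was at 20.2, 14.7, 19.2, 18.1 and 22.4 CPM in fresh and 0.0528, 0 and 0.0400 CPM in cultured libraries. With 2 cultured reads in all, it was lower by a factor of 635 (95% counting interval 175 to 5245). The macrophage antigen Adgre1 was at 11.4, 7.08, 19.9, 11.1 and 12.5 CPM and 0.0528, 0.0430 and 0.16 CPM (-7.02 ± 0.53, adjusted p = 3.17e-06). Csf1r, the receptor macrophages depend on, was less far apart, at 45.3, 26.6, 57.9, 44.0 and 44.2 CPM in fresh and 6.55, 6.57 and 5.00 CPM in culture (-2.85 ± 0.25, adjusted p = 7.21e-06). S100a9, abundant in neutrophils, had 31.6, 13.3, 22.6, 67.7 and 78.8 CPM in fresh libraries and no read in culture, at least 969-fold lower.

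Red cell and oocyte genes were among the 12 largest falls. Hbb-bs, a beta globin, was at 2425, 979, 6657, 1943 and 1914 CPM in the fresh libraries, highest in EM-mGC-3, and had no read in any cultured library, at least 58431-fold lower. Hba-a1, an alpha globin with a near-identical copy in Hba-a2 between which reads cannot be assigned with certainty, was at 2528, 1095, 7284, 1995 and 2137 CPM in fresh libraries and had 1 read in each cultured library, a ratio of 63069.6 (95% counting interval 21581 to 305833). Oocyte transcripts were in all fresh libraries. Padi6, of the oocyte cytoplasmic lattices, was at 22.7, 143, 125, 62.2 and 105 CPM, lowest in EM-mGC-1, and had no cultured read, at least 2045-fold lower. The egg coat protein gene Zp3 was at 10.6, 74.5, 72.9, 29.2 and 55.0 CPM in fresh and 0, 0.0859 and 0 CPM in cultured libraries, a ratio of 1611 (95% counting interval 446 to 13306). Gdf9, the oocyte growth factor that acts on granulosa cells, was still at 1.06, 1.20 and 1.08 CPM in culture against 29.9, 191, 262, 66.6 and 130.1 CPM in fresh cells (-6.92 ± 0.82, adjusted p = 5.28e-05). Of the oocyte list, 8 genes had no cultured read. Ezhip (at least 989-fold lower), Khdc1b, Trim61 and Nlrp4f, which the rule on the largest falls named without regard to cell type, had no read in culture either.

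Theca, stromal and surface markers fell too, with exceptions. Called lower were 53.8% of theca, 69.6% of stromal and 83.3% of surface genes, against 18.7% of all tested genes. Cyp17a1, the androgen-making enzyme of theca cells, was at 136, 279, 236, 196 and 169 CPM in fresh libraries and had 2 reads in culture, a ratio of 6833 (95% counting interval 1891 to 56429.7). Insl3, a theca hormone, was at 2.72, 0.995, 2.46, 7.49 and 2.92 CPM in fresh and 0.317, 0.0430 and 0.20 CPM in cultured libraries (-4.15 ± 0.78, adjusted p = 0.000913). Of 13 tested theca and Leydig-type genes 7 were lower and 1 higher, and that one, Aldh1a1 of retinoic acid synthesis, was so abundant (4139, 3781 and 3398 CPM in culture against 330.5, 319.7, 579, 513 and 389.6 CPM in fresh cells) that the summed theca level was higher in culture. Among 23 stromal genes 16 were lower, led by Cd34 (-8.19) and including Pdgfra, the PDGF receptor of mesenchyme (-3.19 ± 0.22, adjusted p = 2.08e-06) and the proteoglycan Dcn, at 101, 49.0, 127, 162 and 85.4 CPM in fresh and 0.845, 1.93 and 1.96 CPM in cultured libraries (-6.02 ± 0.48, adjusted p = 4.25e-06). The endothelial cadherin Cdh5 was at 33.7, 19.2, 28.9, 22.5 and 27.8 CPM and 1.11, 0.773 and 0.640 CPM (-4.98 ± 0.28, adjusted p = 6.3e-07), and Cldn5, of endothelial tight junctions, had no cultured read and was at least 204-fold lower. Of 16 tested smooth muscle and pericyte genes 5 were lower (31.2% against 18.7% of all tested genes). Called higher were 2 (12.5% against 4.05%), and the median was -0.73. The pericyte gene Rgs5 had 1 cultured read, a ratio of 956 (95% counting interval 171 to 37795), and Abcc9 and Kcnj8 fell likewise. Acta2 and Mcam (3.08 ± 0.22, adjusted p = 2.53e-06) of the same list rose. The summed level of that list was higher in every cultured library, at 856 to 1080 CPM against 206 to 425 CPM in fresh ones. In the surface epithelium list 15 of 18 genes were lower, such as the urothelial and mesothelial membrane protein Upk3b (-4.55 ± 0.42, adjusted p = 1.07e-05), and keratin 18, Krt18, was higher (2.53 ± 0.27, adjusted p = 2.82e-05). The summed level of that list overlapped between the groups, at 350.4 to 583 CPM in fresh and 405 to 439 CPM in cultured libraries. The plot of summed marker levels shows the range, with the macrophage sum at 388 to 1094 CPM in fresh and 20.5 to 24.1 CPM in cultured libraries and the red blood cell sum at 2359 to 16159.7 CPM and 0.759 to 0.902 CPM.

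**Figure D2:**
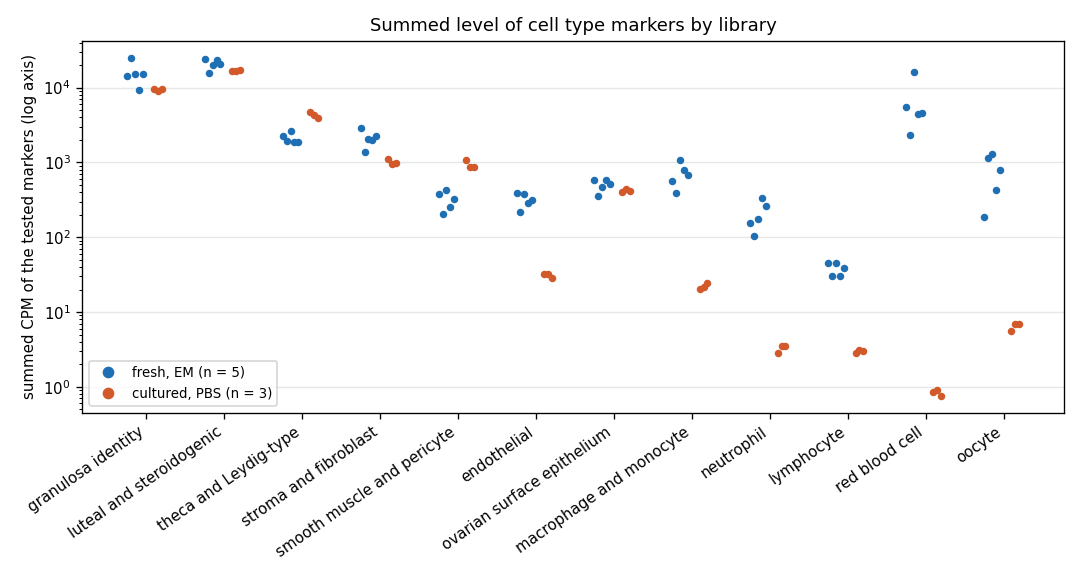
Summed CPM (log axis) of the tested members of 12 marker lists in each fresh EM library (blue, n = 5) and cultured PBS library (orange, n = 3). Granulosa sums overlap between the groups, whereas macrophage, neutrophil, lymphocyte, endothelial, red blood cell and oocyte sums of the cultured libraries all lie below the fresh ones.

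Higher in culture were genes of the YAP and TEAD pathway and of the actin cytoskeleton. The largest log2 fold change of all tested genes was that of Ankrd1 (chr19:36089361-36097499 in GRCm39), a muscle ankyrin repeat protein and YAP target, at 0.126, 0.0585, 0.154, 0.495 and 0.249 CPM in fresh and 629, 519 and 453 CPM in cultured libraries. It had at most 8 reads in a fresh library and was high in all cultured ones (11.22 ± 0.31, adjusted p = 3e-08). Of 22 tested YAP and TEAD targets 10 were higher and 1 lower (median 1.64), and of 31 actin and SRF genes 14 were higher and 1 lower (median 1.52), against 4.05% of all tested genes called higher. To show what lies at these genes, the RefSeq promoter windows (build GRCm38.p6, 250 bases before to 50 after the annotated start) were searched on both strands for the TEAD site GGAATG and, by name, the CArG box that SRF binds. The bases before the start are given 5′ to 3′ for the YAP targets with the best known sites and for SRF genes, each with a match in capitals.
Ankrd1, chr19:36119845-36120094, minus strand: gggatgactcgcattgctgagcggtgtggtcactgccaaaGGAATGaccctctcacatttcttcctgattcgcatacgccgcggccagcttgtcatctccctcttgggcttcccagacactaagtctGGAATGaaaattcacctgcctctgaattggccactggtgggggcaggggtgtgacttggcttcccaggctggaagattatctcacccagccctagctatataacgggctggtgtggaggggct
Ccn1, chr3:145649986-145650135, minus strand: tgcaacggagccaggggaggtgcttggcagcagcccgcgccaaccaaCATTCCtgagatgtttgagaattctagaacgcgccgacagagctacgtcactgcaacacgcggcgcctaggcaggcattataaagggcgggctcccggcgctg
Amotl2, chr9:102717654-102717803, plus strand: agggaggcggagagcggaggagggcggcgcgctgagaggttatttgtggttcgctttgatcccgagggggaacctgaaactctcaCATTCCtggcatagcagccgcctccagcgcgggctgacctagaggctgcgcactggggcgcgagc
Actg1, chr11:120348496-120348645, minus strand: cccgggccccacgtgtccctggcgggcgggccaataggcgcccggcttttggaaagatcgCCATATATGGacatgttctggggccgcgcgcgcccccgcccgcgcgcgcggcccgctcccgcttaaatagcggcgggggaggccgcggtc
Cnn2, chr10:79988450-79988599, plus strand: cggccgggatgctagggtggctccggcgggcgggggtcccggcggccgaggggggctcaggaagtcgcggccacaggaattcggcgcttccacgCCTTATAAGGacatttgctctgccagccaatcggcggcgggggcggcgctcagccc
Vcl, chr14:20929148-20929397, plus strand: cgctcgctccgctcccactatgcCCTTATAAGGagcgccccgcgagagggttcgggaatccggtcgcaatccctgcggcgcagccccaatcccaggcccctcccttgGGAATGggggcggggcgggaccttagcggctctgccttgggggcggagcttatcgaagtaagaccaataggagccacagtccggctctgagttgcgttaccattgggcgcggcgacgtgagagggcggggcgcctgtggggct
Capitals mark GGAATG or its reverse complement CATTCC in Ankrd1, Ccn1 and Amotl2, a CArG box in Actg1 and Cnn2, and in Vcl a CArG box followed by a TEAD site. The first base of the TEAD sites in Ankrd1 is at -210 and -123 from the start.

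The CArG box was found in 8 of 29 actin and SRF genes with a promoter window (27.6%) and in 1.81% of all 27025 genes with one. Among the 8, Actg1, Cnn2 and Vcl were called higher, Fhl1 lower, and Myl9, Myl6, Srf and Fhl2 were not called. The TEAD site was found in 8 of 16 matched YAP and TEAD targets and in 16.6% of all genes. Only 16 of the 23 listed targets had a window, so that the share over the whole list is void. A match describes the letters in the window and does not show binding.

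Ccn1 (chr3:145352731-145355736 in GRCm39), a matricellular protein and a classical YAP target, was at 42.3, 33.5, 48.1, 114 and 50.3 CPM in fresh libraries, with EM-mGC-4 above the other 4, and at 1320.2, 989 and 939 CPM in culture (4.23 ± 0.37, adjusted p = 7.25e-06). Amotl2, a feedback inhibitor of YAP, was at 59.4, 34.8, 55.0, 77.3 and 53.7 CPM and 1467, 1227 and 1154 CPM (4.52 ± 0.23, adjusted p = 3.75e-07), and Nt5e, the ectonucleotidase CD73, at 8.16, 2.98, 5.31, 12.5 and 3.42 CPM and 391, 367 and 333 CPM (5.81 ± 0.41, adjusted p = 2.07e-06). For all 3 the groups were far apart. The TEAD-regulated genes Wwc1 (3.70), Ajuba (3.56), Fjx1 (3.34), Crim1 (3.06), Axl (2.94) and Tgfb2 (2.62) were called higher with the log2 fold changes given, and the kinase Nuak2 was lower (-2.61). Ccn2, which shares its regulators with Ccn1, overlapped between the groups, at 78.2, 268, 151, 105 and 95.4 CPM in fresh and 305, 263 and 241 CPM in cultured libraries (0.95 ± 0.35, adjusted p = 0.0318).

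Among cytoskeletal genes, cytoplasmic gamma actin Actg1 was at 642, 595, 1072, 996 and 644 CPM in fresh and 4450.3, 3801 and 3642 CPM in cultured libraries (2.33 ± 0.23, adjusted p = 1.61e-05). Beta actin, Actb, was at 1486, 1493, 1933, 1971 and 1549 CPM and 5142, 4078 and 4243 CPM, separate but not 4-fold apart (1.41 ± 0.17, adjusted p = 6.35e-05). Caldesmon, Cald1, which stabilizes stress fibres, rose most of the list, from 139, 85.6, 141, 176 and 132 CPM to 2198, 2398 and 1922 CPM (4.01 ± 0.22, adjusted p = 5.29e-07). Calponin 2, Cnn2, was at 48.4, 23.9, 59.4, 38.2 and 36.4 CPM and 497, 383 and 373 CPM (3.34 ± 0.25, adjusted p = 3.11e-06), and the cross-linkers Actn1 (3.78), Actn4 (3.03) and Flna (2.25) and the non-muscle myosin heavy chain Myh9 (2.72) were called higher as well. Vinculin of focal adhesions, Vcl, was at 65.0, 92.1, 87.5, 81.2 and 58.0 CPM in fresh and 337, 314 and 310.3 CPM in culture (2.06 ± 0.15, adjusted p = 3e-06), and smooth muscle actin, Acta2, at 139.5, 66.9, 214, 99.0 and 130.1 CPM and 724, 540.3 and 552 CPM (2.22 ± 0.30, adjusted p = 0.000128). Both lay near the limit. Vcl was under it in 7 and Acta2 in 4 of the alternative analyses, with log2 fold changes down to 1.81 and 1.5. Of the contractile genes of differentiated smooth muscle, Myh11 (-1.90), Tagln (0.69) and Cnn1 (0.83) were not called, although Myh11 was close to the limit. It passed with upper-quartile factors (-2.16), total counts (-2.17), 10 counts in every library (-2.06), Con in place of EM (-2.91), EET against Con (-2.37), and without EM-mGC-4 (-2.02) or PBS-3 (-2.03).

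**Figure D3:**
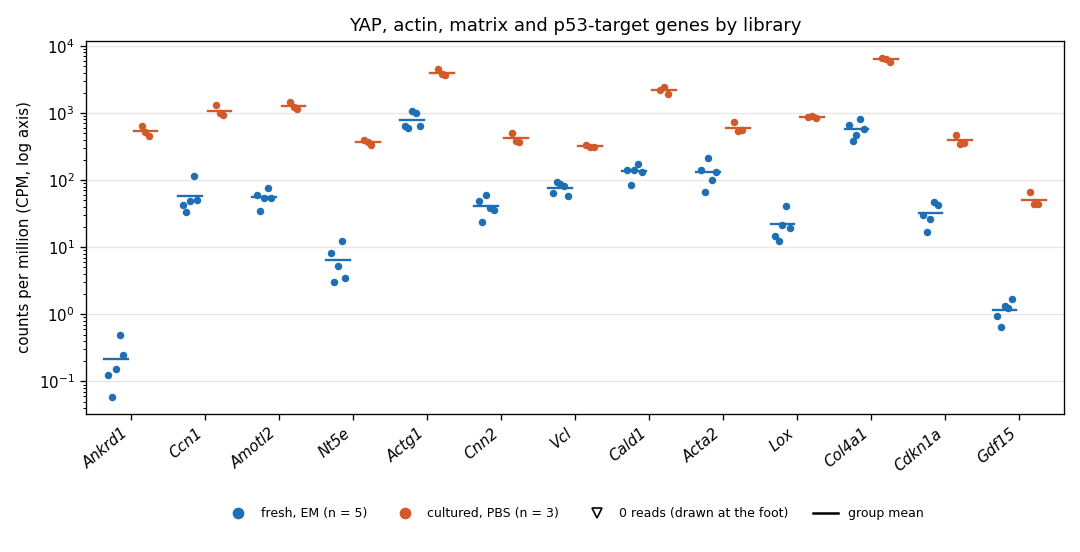
CPM (log axis) of 13 genes of the YAP, actin, matrix and p53 lists in each fresh EM library (blue, n = 5) and cultured PBS library (orange, n = 3), with group means as bars. Every cultured library lies above every fresh library for each gene, with the widest gap for Ankrd1.

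The other largest rises were those of developmental and secreted factors. The transcription factors Tbx18 (0.0632, 0.0585, 0.308, 0.0619 and 0.0622 CPM in fresh, 70.4, 62.9 and 57.5 CPM in cultured libraries) and Ebf3 (0.885, 0.644, 0.385, 0.310 and 1.18 CPM and 143, 153 and 153 CPM) rose by log2 fold changes of 9.18 ± 0.28, adjusted p = 3.7e-08 and 7.75 ± 0.25, adjusted p = 4.64e-08. Tbx18 marks the coelomic epithelium and its descendants in the embryo. The neurotrophins Bdnf, at 0.0632, 0.468, 0.154, 0.0619 and 0.373 CPM in fresh and 46.4, 59.3 and 49.8 CPM in culture (7.78 ± 0.35, adjusted p = 1.84e-07), and Ntf3 (7.98 ± 0.27, adjusted p = 5.44e-08) rose, as did the Wnt antagonist Dkk2 (8.40 ± 0.40, adjusted p = 2.53e-07) and the neuronal membrane protein Slitrk4, at 0.253, 0.0585, 0.231, 0.124 and 0.249 CPM in fresh and 99.4, 126 and 100 CPM in cultured libraries (9.18 ± 0.22, adjusted p = 3e-08). All but Ebf3 had at most 8 reads in a fresh library. Serpinb9e had no fresh read and 7.87, 8.85 and 7.11 CPM in culture. Serpinb9b (7.71 ± 0.23, adjusted p = 3.38e-08) belongs to the same tandem family of serpins, whose reads may be shared. Trabd2b, an inhibitor of Wnt proteins, was at 0.759, 1.70, 1.23, 0.867 and 1.12 CPM in fresh and 246, 195 and 174 CPM in cultured libraries (7.49 ± 0.21, adjusted p = 3e-08). Ptchd4 and the homeobox gene Rhox12 had 1 and 2 fresh reads in all and 524 and 419 cultured reads.

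The matrix genes changed in both directions. In the basal lamina list 7 of 20 tested genes were higher (35% against 4.05% of all tested genes) and 3 lower (15% against 18.7%, median 0.59). The higher ones were all 6 collagen IV chains and the proteoglycan perlecan, Hspg2 (2.36). Col4a1 was at 665, 384, 474, 824 and 572 CPM in fresh and 6683, 6396 and 5814 CPM in cultured libraries (3.43 ± 0.24, adjusted p = 2.32e-06), and Col4a2, which shares its promoter region with Col4a1 on the other strand, had a log2 difference of 3.42 ± 0.27, adjusted p = 3.95e-06. The laminin chain Lama1 was not called (0.96 ± 0.19, adjusted p = 0.00132), and Lama2, which mesenchymal cells make, fell (-4.68 ± 0.21, adjusted p = 1.81e-07). Among interstitial matrix genes 8 of 37 were higher (21.6% against 4.05% of all tested genes) and 14 lower (37.8% against 18.7%, median -0.31). The cross-linking enzyme Lox was at 14.9, 12.5, 21.7, 41.5 and 19.6 CPM in fresh and 878, 895 and 841 CPM in cultured libraries, each cultured value far above each fresh one (5.31 ± 0.35, adjusted p = 1.64e-06). Higher too were Col8a1 (4.94), Col5a2 (3.82), Col12a1 (3.62), Fbln2 (3.33) and Thbs1 (3.06). Stromal collagens fell, with Col3a1 at 547, 225, 412, 373 and 426 CPM in fresh and 15.1, 15.4 and 18.7 CPM in culture (-4.59 ± 0.30, adjusted p = 1.42e-06) and log2 fold changes of -3.83 for Col1a2 and -6.47 for Col6a2. Col1a1 overlapped between the groups, at 264, 100.1, 158, 178 and 218 CPM and 280, 199 and 198 CPM (0.30 ± 0.27, adjusted p = 0.345), as did fibronectin, Fn1 (-0.26 ± 0.29, adjusted p = 0.434).

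Among genes of contacts between cells, Gja1, connexin 43 of the gap junctions between granulosa cells, fell from 2616, 4809.5, 3609, 1965 and 2664 CPM in fresh to 436, 561 and 688 CPM in cultured libraries (-2.48 ± 0.32, adjusted p = 9e-05), and Gja4, connexin 37, fell too (-3.88 ± 0.66, adjusted p = 0.00052). In the whole adhesion list 3 of 26 genes were higher and 6 lower (23.1% against 18.7% of all tested genes), where the endothelial Cldn5 and the epithelial cadherin Cdh1, with 3 cultured reads, were among the lower. Of 24 proteases and inhibitors 4 were higher (16.7% against 4.05% of all tested genes) and 3 lower (12.5% against 18.7%). Timp3, a matrix-bound metalloprotease inhibitor, was at 46.3, 33.0, 49.7, 52.3 and 36.7 CPM in fresh and 406, 351 and 326 CPM in culture (3.05 ± 0.16, adjusted p = 4.98e-07). Every cultured library was above every fresh one. Timp1 (-0.15 ± 0.38, adjusted p = 0.730) and Plat (-1.05 ± 0.37, adjusted p = 0.0280) were not called.

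No gene of the cell cycle lists was called, while 8 of 25 CDK inhibitors and p53 targets rose. None of 30 S phase and 30 mitosis genes was called in either direction by edgeR (0 of both lists), nor by DESeq2 or voom (0), with medians of -0.10 and -0.09. At an unadjusted p under 0.05 without the fold limit 14 and 15 of them passed. Mki67, of dividing cells, was at 207, 279, 45.2, 73.6 and 157 CPM in fresh and 76.4, 89.0 and 85.1 CPM in cultured libraries (-0.87 ± 0.50, adjusted p = 0.143), and Top2a, of DNA decatenation, at 135, 217, 108, 68.3 and 128 CPM and 122, 136 and 121 CPM (-0.06 ± 0.29, adjusted p = 0.872). For both, the cultured libraries lay within the fresh range. Ccnb1, the mitotic cyclin (0.15 ± 0.34, adjusted p = 0.703), the helicase Mcm5 (-0.25 ± 0.26, adjusted p = 0.427) and the clamp Pcna (-0.41 ± 0.15, adjusted p = 0.0309) overlapped as well. Of the CDK inhibitors and p53 targets 32% were higher, against 4.05% of all tested genes, 0 were lower and 17 were not called (median 1.04). Cdkn1a, p21, was at 30.4, 17.0, 26.7, 47.1 and 42.8 CPM in fresh and 467, 350.2 and 361 CPM in cultured libraries (3.58 ± 0.29, adjusted p = 4.5e-06). Gdf15, a stress cytokine, was at 0.949, 0.644, 1.31, 1.24 and 1.68 CPM and 65.6, 44.1 and 44.3 CPM (5.46 ± 0.26, adjusted p = 2.39e-07). Both were higher in all cultured libraries, with Phlda3 (3.65), Bbc3 (3.40), Sesn2 (2.22), Aen (2.19) and Ccng1 (2.03). The CDK inhibitor Cdkn2b did not reach 4-fold (1.13 ± 0.44, adjusted p = 0.0420). Cdkn2a had 5 to 15 reads per fresh and 11 to 14 per cultured library, too few to test.

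The secreted factors of senescent cells were divided. Of 39 tested, 6 were higher (15.4% against 4.05% of all tested genes) and 13 lower (33.3% against 18.7%, median -0.92). The lower ones were led by cytokines and chemokines that leukocytes also make, such as Cxcl2, at 74.5, 55.0, 189, 147 and 92.9 CPM in fresh libraries with 2 reads in culture, a ratio of 3629 (95% counting interval 1004 to 29972). Il1b had 1 cultured read, a ratio of 2251 (95% counting interval 404 to 88947), and Ccl2 fell as well (-6.45 ± 0.77, adjusted p = 5.27e-05). Il6 was at 3.04, 4.68, 16.6, 4.58 and 3.30 CPM in fresh libraries, highest in EM-mGC-3, and 0.423, 0.215 and 0.240 CPM in culture (-4.45 ± 0.74, adjusted p = 0.000454). The higher ones included Cxcl5 (5.08), Lif (4.34), Nrg1 (3.42) and Igfbp2 (2.62). The fall of the leukocyte markers given above moved with the fall of these cytokines, and its part in it was not tested.

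Transcripts of the mitochondrial genome took a smaller share of the cultured libraries. Their share of all counts was 1.38% ± 0.239 (SD, n = 3) in cultured and 12% ± 5.61 (SD, n = 5) in fresh libraries, which ranged from 8.09% to 21.8%, highest in EM-mGC-3. The groups did not overlap (two-sided exact permutation test, p = 0.0357, the smallest that 3 against 5 libraries allow). Of 13 mitochondrial messenger RNAs 12 were lower and none higher (0), while none of 49 nuclear genes of the respiratory chain was called by edgeR, DESeq2 or voom (0, median 0.18), with 31 of them under an unadjusted p of 0.05. mt-Co1, of cytochrome c oxidase, was at 45021, 34922, 119182, 52350.3 and 41845 CPM in fresh and 6952, 9644 and 7690.1 CPM in cultured libraries (-2.86 ± 0.47, adjusted p = 0.000401), and mt-Nd1, of complex I, at 9925, 8832, 32057, 12166 and 8784 CPM and 642, 1056 and 715 CPM (-4.16 ± 0.55, adjusted p = 0.000106). Each cultured value was below each fresh one. mt-Nd5, also of complex I, was not called (-0.72 ± 0.26, adjusted p = 0.0284). The nuclear subunits Cox4i1 (0.69) and Ndufa4 (0.81) had positive log2 fold changes under the limit.

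The mitochondrial genes did not differ by 1 common factor, although all but mt-Nd6 are cut from a common precursor RNA. The 6 neighbours mt-Co2, mt-Atp8, mt-Atp6, mt-Co3, mt-Nd3 and mt-Nd4l had log2 fold changes of -6.32, -8.37, -8.37, -6.99, -8.28 and -7.81, and the other 7 lay between -4.16 and -0.72. This stretch has a near-identical copy in the nuclear genome on chromosome 1, where the pseudogenes Gm10925, Gm28437 and Gm28661 lie, and these too were lower in culture, by log2 fold changes of -8.03, -7.02 and -6.62. Reads that match both places cannot be assigned with certainty, so that the values of the 6 genes are uncertain. Further pseudogenes lie beside those named, with Gm28439 (-6.90) and Gm29216 (-6.87) at the ends, both lower in culture. By their order, these ends hold the places of mt-Nd4 and mt-Co1, which flank the 6 genes. Gm28439 overlaps its neighbour Gm10222 just as mt-Nd4 overlaps mt-Nd4l. By position the copy thus reaches into mt-Co1 and mt-Nd4, so that their values are uncertain too. The sequences were not compared. The 6 genes were then left out, a choice made after seeing the data. As mt-Co1 and mt-Nd4 were kept, reads that match the copy may remain. The mitochondrial share was 1.37% ± 0.239 (SD, n = 3) in cultured and 11.5% ± 5.19 (SD, n = 5) in fresh libraries, which still did not overlap. The plot of mitochondrial messenger RNAs shows the step at both ends of the stretch.

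**Figure D4:**
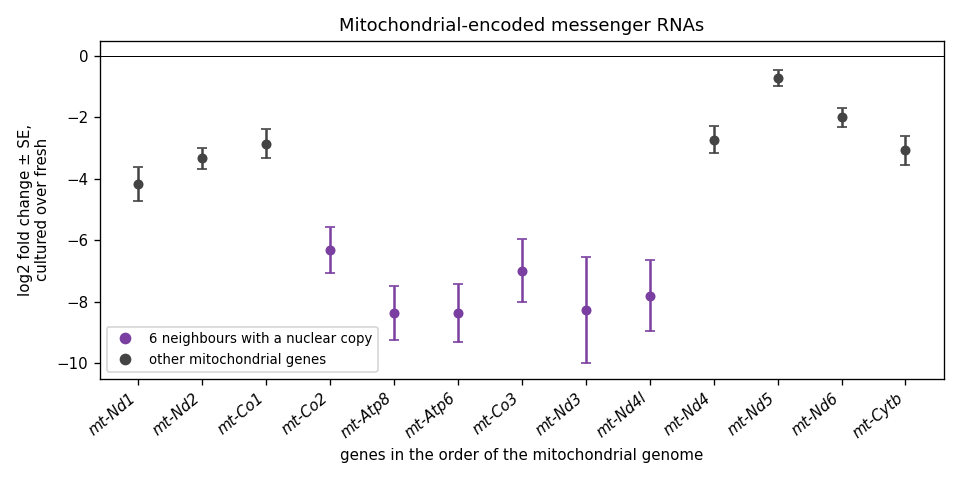
Log2 fold change (cultured over fresh, points, with SE as bars) of the 13 mitochondrial messenger RNAs in the order of the mitochondrial genome. The 6 neighbours with a nuclear copy (purple) lie between -8.37 and -6.32, and the other 7 genes (grey) between -4.16 and -0.72. By position the copy also reaches into mt-Co1 and mt-Nd4, which are drawn in grey.

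Of 28 immediate early genes 2 were higher and 5 lower (median -0.46), and the 17.9% called lower is close to the 18.7% of all tested genes. Fos was at 188, 224, 191, 446 and 242 CPM in fresh and 33.9, 41.8 and 49.4 CPM in cultured libraries (-2.63 ± 0.31, adjusted p = 5.42e-05), and Fosb at 148, 152, 131, 474 and 196 CPM and 9.09, 8.16 and 8.71 CPM (-4.67 ± 0.50, adjusted p = 2.61e-05). EM-mGC-4 was the highest library for both, and no cultured library reached the lowest fresh one. The related Fosl1 rose instead, from 0.379, 0.117, 0.0770, 0.248 and 0.187 CPM to 5.34, 2.96 and 3.0 CPM (4.16 ± 0.42, adjusted p = 1.82e-05). Interferon response and MHC class I genes were lower for 15 and higher for 0 of 31 tested (median -1.87), among them Ifit3 (-4.76), Isg15 (-3.32), Irf7 (-3.22) and Rsad2 (-3.98). B2m, the class I light chain, was at 289, 179, 292, 269.8 and 299 CPM in fresh and 98.6, 105 and 103 CPM in culture, separate but under 4-fold (-1.38 ± 0.17, adjusted p = 7.39e-05). Over all tested genes 18.7% were lower, and the lower interferon genes moved with the leukocyte markers, of which 24 of 24 macrophage, 14 of 15 neutrophil and 14 of 15 lymphocyte genes were lower, whose part in the result was not tested.

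In the list of the unfolded protein response and heat shock 5 of 29 genes were higher and 2 lower. The shares were 17.2% higher and 6.9% lower, against 4.05% and 18.7% of all tested genes. The higher ones were the glutathione-degrading enzyme Chac1, at 0.569, 0.761, 1.08, 1.86 and 0.622 CPM in fresh and 21.8, 19.0 and 21.7 CPM in cultured libraries (4.41 ± 0.32, adjusted p = 2.68e-06), with Asns (2.61), Trib3 (2.44) and Sesn2 (2.22), which are known targets of the transcription factor ATF4, and the small heat shock protein Hspb1 (3.81). The chaperone of the endoplasmic reticulum Hspa5 (-0.17 ± 0.18, adjusted p = 0.410) and Ddit3 (0.28 ± 0.28, adjusted p = 0.397) were not called, and the inducible heat shock genes Hspa1a and Hspa1b, near-identical copies whose reads may be shared, were lower (-2.64 and -2.72). Of 37 antioxidant genes 3 were higher (8.11% against 4.05% of all tested genes) and 2 lower (5.41% against 18.7%, median 0.76). Heme oxygenase, Hmox1, was at 52.6, 44.6, 61.1, 68.4 and 51.4 CPM in fresh and 406, 313 and 312 CPM in cultured libraries (2.63 ± 0.15, adjusted p = 7.81e-07), and Txnrd1 (2.32) and Ftl1 (2.09) were higher too. Nqo1 was not called (0.83 ± 0.23, adjusted p = 0.00891).

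In several metabolic and housekeeping lists few genes were called. Of 26 cholesterol genes 0 were higher and 1 lower (median 0.69), the lower one being Hsd17b7 (-2.09 ± 0.25, adjusted p = 5.26e-05). Hsd17b7 was under the fold limit in 4 alternative analyses. None of 51 ribosomal protein genes was called by edgeR or DESeq2 (0, median -0.02) and 1 by voom, with 16 under an unadjusted p of 0.05. In glycolysis and hypoxia 1 of 31 genes was higher, hexokinase 2, Hk2, at 34.3, 30.2, 36.3, 38.4 and 32.5 CPM in fresh and 242, 200.2 and 209 CPM in culture (2.66 ± 0.11, adjusted p = 1.14e-07), and 2 were lower, Egln3 (-3.15) and Slc16a3 (-2.28). Enzymes and carriers of epoxyeicosatrienoic acids (EETs) had 2 of 10 tested genes lower and 0 higher. The 20% called lower is close to the 18.7% of all tested genes. The lower ones were the fatty acid carriers Fabp4 (-3.69) and Fabp3 (-2.61). Ephx2, soluble epoxide hydrolase, which breaks EETs down, was at 1310.2, 918, 1069, 2057 and 1329.6 CPM in fresh and 2394, 2577 and 2594 CPM in cultured libraries, higher in each cultured library but under 4-fold (0.92 ± 0.24, adjusted p = 0.00660). Ephx1 overlapped (0.08 ± 0.17, adjusted p = 0.708). Among 13 genes of the polycomb complex PRC2 and its partners none was called by edgeR, DESeq2 or voom (0), with 7 under an unadjusted p of 0.05 and Ezh2 at 60.3, 86.4, 61.9, 50.5 and 67.5 CPM and 50.4, 54.6 and 48.6 CPM (-0.35 ± 0.16, adjusted p = 0.0675).

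**Figure D5:**
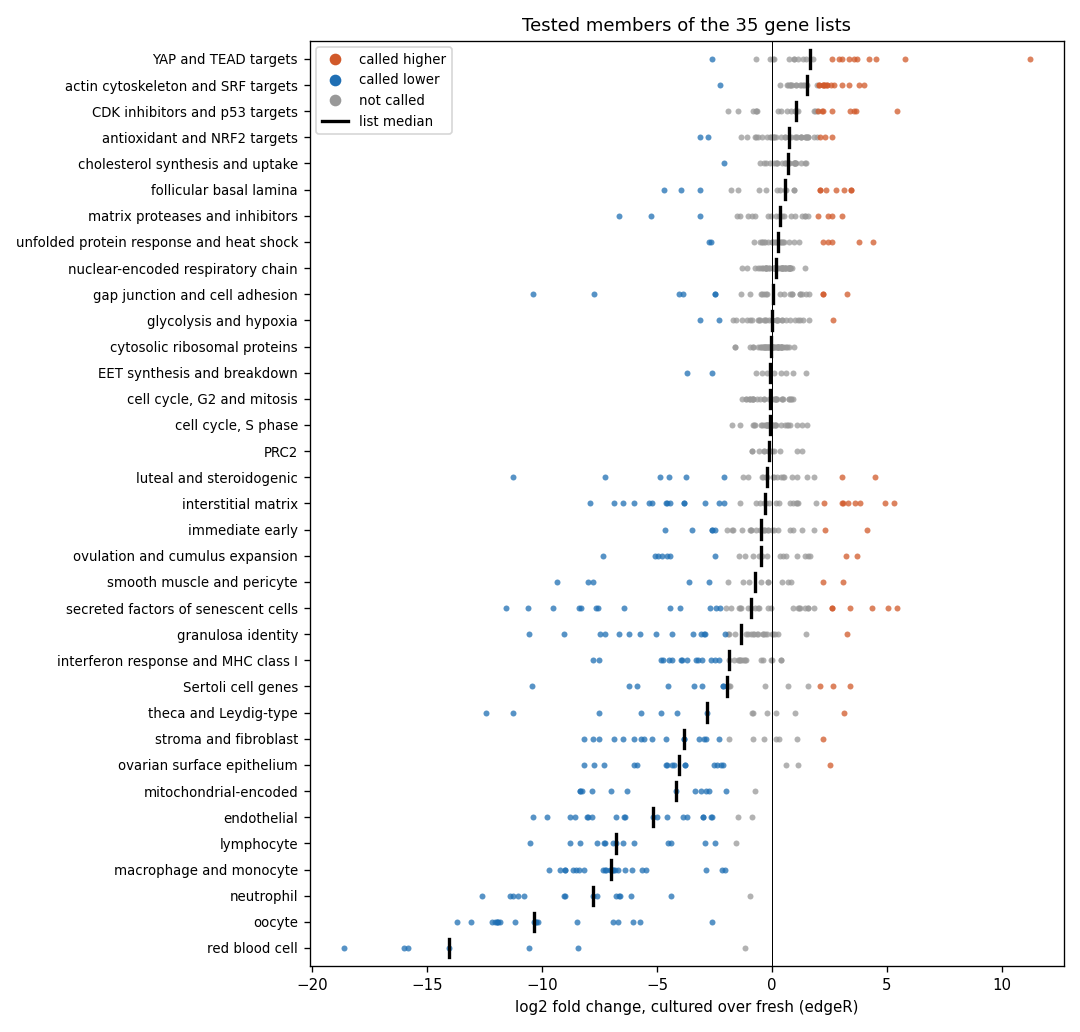
Log2 fold change (cultured over fresh, edgeR) of the tested members of 35 gene lists, with called genes in orange (higher) or blue (lower), others in grey, and the median of each list as a black bar. YAP, actin and p53 lists lie at the top with positive medians, cell cycle, ribosomal and PRC2 lists near 0, and leukocyte, oocyte and red blood cell lists at the bottom.

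A similar contrast could be made in libraries outside the main comparison. EET-1 to EET-3 are mGCs cultured alike with 100 nM 14,15-EET and share their mice with the PBS libraries, and 5 fresh libraries came from sham-operated mice (Con). In EET against Con 4373 genes were called. Of these, 3459 were called in the same direction in PBS against EM, which is 79.1% of the first set and 87.8% of the second, and 0 in the opposite direction. The log2 fold changes in this comparison were 13.09 for Ankrd1, 4.46 for Ccn1, -12.67 for Lhcgr, -11.15 for Cyp19a1, -4.25 for Fshr, 3.43 for Col4a1 and 4.42 for Cdkn1a. Cyp11a1 (-0.31) and Star (-0.73) were again under the limit. The pair is confounded with the sequencing experiment in the same way. It also differs in the EET treatment and in the endometriosis model, so that it is not the same contrast.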

How the data were processed

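Gene counts were analysed for 5 fresh and 3 cultured libraries of mGCs from EM mice, all from poly(A) RNA sequenced as stranded paired-end reads. The values are raw counts per gene as deposited by the authors, in 1 table per sequencing experiment, which were joined on the gene identifier. The submitters' processing notes name fastp, HISAT2, StringTie and the build GRCm39 without versions, and the file name points to featureCounts. The treatment of strand and of reads that match several genes was not given in the sources used here. The authors applied DESeq2.

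Genes were filtered with filterByExpr, scaled with TMM factors and tested with the robust quasi-likelihood test of edgeR 4.0.16 in R 4.3.3, with Benjamini-Hochberg adjustment over all 17301 tested genes. Calls needed an adjusted p under 0.05 and a log2 fold change of 2 or more in size. The SE of a log2 fold change was derived from the test, as its size divided by the square root of the F statistic. Totals were 14229123 to 15072324 counts in fresh and 21384686 to 27728777 in cultured libraries. CPM are counts relative to the TMM-scaled library size. Where a group had no read, the fold is a lower limit against 3 counts over the group, and with 1 to 3 counts it is a ratio with its exact 95% counting interval. Limits and intervals cover counting error only. The study describes the 3 cultured replicates as biological replicates, without saying which mice went into each, and p-values measure the spread between these libraries. The scripts were tested on simulated data.

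Named genes were the 12 largest rises and the 12 largest falls among called genes with a mean log2 CPM of at least 1, separate groups and a named symbol, the key genes of 35 lists, and the most changed called member of each list in each direction, while the other list members named were chosen after their values were seen. The members and lists were chosen with earlier results of these data known. The same replicate numbers in both groups belong to different mice and were not taken as pairs. Alternatives were DESeq2 1.42.0, voom with sample weights (limma 3.58.1), other scaling factors and filters, other fold limits, a replicate block, the EET and Con libraries in place of PBS and EM, and leaving out each library. Some members of the lists are not reported here.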

Additional observations from a re-analysis of the deposited data

Results flagged for a closer look

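Over the 5 fresh libraries, the highest or the lowest library stood apart from the others by Dixon's 95% criterion for 28 of 153 values. The rate of 1 in 20 behind this criterion holds for independent, normally distributed values. Many of the values here move together, so that their count cannot be set against chance. The values are CPM unless stated otherwise. EM-mGC-3 stood apart for 13. It had the highest mitochondrial share (21.8% of counts), the highest mt-Nd1 (32057), mt-Co1 (119182) and mt-Atp8 (51.0), and the highest red cell genes, namely Hbb-bs (6657), Hbb-bt (1258), Hba-a1 (7284), Hba-a2 (267) and Alas2 (684). Il6 (16.6), Areg (3.46), Amhr2 (109) and Tbx18 (0.308) of EM-mGC-3 were apart as well.

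EM-mGC-4 was apart for 8 genes and highest in each, the immediate early genes Fos (446), Fosb (474) and Egr1 (469), the ovulatory genes Ptgs2 (31.5), Ptger2 (5.45) and Tnfaip6 (23.6), the YAP target Ccn1 (114) and the luteal gene Parm1 (155). For Ptgs2, Ptger2, Ccn1 and Parm1 these values are still below those of every cultured library. EM-mGC-2 was apart for 6, as the highest for Cyp19a1 (601), Rhox8 (19.2) and Zbtb16 (5.50) and the lowest for B2m (179) and Ccl21a (36.5), and its 1 read of Ptchd4 (0.0585 CPM) met the criterion against 0 in the other 4. EM-mGC-1 was apart for Lama2 (24.0).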

How the results depend on the processing

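The call rule and the filter on low counts moved the counts of called genes most. With a limit of 1 in place of 2 on the log2 fold change, 7210 genes were called, 2277 higher and 4933 lower, and with no fold limit 11932, 5382 higher and 6550 lower. The glmTreat test against a 2-fold difference called 1457 genes higher. Without a filter 6711 genes were called, 5776 of them lower. Requiring 10 counts in every library left 1224 calls, 405 higher and 819 lower, so that 33.1% of calls were higher against 17.8% with the main filter. Upper-quartile and total-count scaling shifted the median of all genes by -0.25 and -0.26 against the main scaling, with 4132 and 4140 calls. DESeq2 gave 3971 calls, voom 3971, RLE factors 3955, thinned counts 3839, EET in place of PBS 3862, Con in place of EM 4437, and leaving out a library 3568 to 4274.

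The replicate block gave 3964 calls, 792 higher and 3172 lower. Same-numbered libraries did not deviate together (correlations of -0.01, 0.05 and -0.04) and share only a number. The log2 fold changes of Ezh1 and Timp1 were 0.113 and 0.418 under the block, Vcl was no longer called (1.99), Sparc was (2.10), and no other named gene changed direction or call. Leaving out a library, the cultured minus fresh mitochondrial share ranged from -11.6 to -8.18 percentage points, lowest in size without EM-mGC-3, and the exact permutation p was 0.0571 or 0.0952, the smallest these numbers of libraries allow.

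Direction turned for genes near 0 in the main comparison. With voom, the log2 fold changes were 0.20 for Inhba, 0.0555 for Star and 0.198 for Fn1. Those of Ccnb1, Rps6 and Ephx1 were -0.0939, -0.184 and -0.171 with upper-quartile factors, -0.0777, -0.177 and -0.161 with total counts, and -0.00462, -0.0904 and -0.0766 with 10 counts in every library. Protein-coding genes alone gave -0.0273 for Rps6 and -0.0147 for Ephx1, and no filter gave 0.0107 for Inhba. With Con in place of EM, Col1a1 was at -0.708, Fn1 at 0.476, Ephx1 at -0.469 and Timp1 at 0.646. In EET against Con, edgeR gave -0.743 for Col1a1 (adjusted p = 0.000122), -0.492 for Ephx1 (adjusted p = 0.00435) and 0.687 for Timp1 (adjusted p = 0.00779). The direction of these genes thus depended on the fresh group used, although all stayed under the 4-fold limit. Leaving out a library gave ranges of -0.242 to 0.436 for Inhba, -0.413 to 0.0875 for Star, -0.232 to 0.175 for Top2a, -0.0236 to 0.384 for Ccnb1, -0.00774 to 0.135 for Rps6, -0.0283 to 0.174 for Ephx1 and -0.382 to 0.0994 for Timp1. The causes were not tested. Calls ended for Vcl in 7, Acta2 in 4, Gsn in 4, Hsd17b7 in 4, Fos in 1 and Cd3e in 1 of the alternatives, Vcl among them without EM-mGC-1 (1.99) or EM-mGC-5 (1.96) and Hsd17b7 without EM-mGC-1 (-1.92). Culture, mouse cohort and sequencing experiment cannot be told apart under any of these settings. Every limit given for a gene without reads in a group rests on a floor of 3 reads over that group.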

Other observations

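The genes below are outside the lists and were chosen after their values were seen, from those with the most counts in culture. Cemip, a hyaluronan-degrading enzyme, was at 818, 318, 255, 825 and 676 CPM in fresh and 6005, 5131 and 4945 CPM in cultured libraries, every cultured library above every fresh one (log2 fold change 3.21 ± 0.38, adjusted p = 5.31e-05). Scd2, a fatty acid desaturase, was at 1730.5, 1968, 1985, 1013 and 1447 CPM and 3399, 4375 and 3722 CPM, separate but under the 4-fold limit (1.23 ± 0.23, adjusted p = 0.000854). The elongation factors Eef1a1 (0.48 ± 0.22, adjusted p = 0.0694) and Eef2 (1.10 ± 0.20, adjusted p = 0.000749) were not called.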
